A study of Mus musculus with 16 samples.

Results

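Ajap1 and 9 other genes, namely Necab1, Gpr63, Rxrg, Dclk3, Klhl14, Tcerg1l, Prss12, Retreg1 and Arhgap29, were selected by their measured values from the 45724 genes of an RNA-seq experiment on cultured neurons. These 10 genes were chosen for values that were higher in libraries given the peptides NP24 or Tβ10 than in libraries of the vehicle control or the peptide Tβ4. The neurons were primary cultures from brains of C57BL/6 mice at P0 (postnatal day 0), and all groups share that strain, age and tissue. The groups were the vehicle control (DPBS, a buffered saline), NP24, Tβ10 and Tβ4, with 4 libraries each. Per the series' design text the peptides derive from the subcommissural organ, a gland of the brain's ventricular roof that secretes into the cerebrospinal fluid. Dose and exposure time are not given in the sources used here, nor whether libraries of a group came from separate cultures, so p-values measure only the spread between these libraries. In the plots Tβ10 and Tβ4 are written Tb10 and Tb4.

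The 10 genes encode proteins of different kinds. The bulk values do not tell which cell type of the cultures held their RNA. Ajap1 encodes a transmembrane protein of adherens junctions that also binds the GABA-B receptor, an inhibitory receptor for the transmitter GABA. Gpr63 is an orphan G protein-coupled receptor, and Necab1 is a neuronal calcium-binding protein with EF-hand motifs. Dclk3 is a kinase of the doublecortin-like family, and Arhgap29 is a GTPase-activating protein that acts downstream of the small GTPase Rap1. Rxrg is a retinoid X receptor, a nuclear receptor that pairs with other nuclear receptors on DNA. Klhl14 is a Kelch-like protein that binds the torsin Tor1a, and the role of Tcerg1l is less well described. Prss12 is a secreted serine protease, neurotrypsin, that cleaves agrin, and Retreg1 is a receptor for autophagy of the endoplasmic reticulum.

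The values were normalized counts, that is, reads per gene after division by a size factor of the library. Reads in genes ranged from 11642242 to 38254320 per library, and 1 read was worth 0.536 to 1.71 normalized counts. All 10 genes were measured well above the filter on low values, under which a gene needed 10 normalized counts or more in 4 or more libraries of a comparison. Their lowest count in any library was 70 reads, for Rxrg in a Tβ4 library. Tβ4 library 2 stood apart from the other Tβ4 libraries. The comparisons of the 10 genes with Tβ4, the pathway calls and the Tβ4 marker sums are therefore given with and without it. The marker tests and marker differences with Tβ4 are given only with it. In that library longer genes were relatively higher: the slope of the log2 value (less the gene's mean) on log10 gene span was 0.358, while control libraries lay between -0.126 and -0.025. The slopes ran from -0.107 to 0.146 in NP24 libraries, from -0.147 to 0.180 in Tβ10 libraries and from -0.195 to 0.0274 in the other Tβ4 libraries. Of the 4 libraries a group, 2 with NP24 and 3 with Tβ10 lay above every control slope, as did Tβ4 libraries 1 and 2. All 10 genes are longer than the median coding gene. The part of these slopes in the levels of the 10 genes was not tested.

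The cultures expressed the neuronal markers Map2, Dcx and Syt1 at group means from 8927 normalized counts (Syt1 with Tβ4) upward. The summed level of the 10 neuron markers was 81463 to 90292 normalized counts in control, 95031 to 100315 with NP24, 90136 to 107407 with Tβ10 and 69962 to 94272 with Tβ4 (to 84035 without library 2). None of the 10 neuron markers passed the test with any peptide. Their median log2 difference from control was 0.21 with NP24 (10 positive), 0.11 with Tβ10 (9 positive) and -0.10 with Tβ4 (3 positive). The summed level of 7 fibroblast and meningeal markers was 1687 to 2300 in control, 1115 to 1308 with NP24, 1206 to 1407 with Tβ10 and 2367 to 4208 with Tβ4 (from 2802 without library 2). Of the 5 fibroblast markers tested, 5 were lower with NP24 and 4 with Tβ10 than in control (limma, adjusted p under 0.05). With Tβ4 all 5 had a positive difference (median 1.155) and none passed. With all Tβ4 libraries 0 of the 22205 genes tested passed, so no marker could stand out in that test. The 8 astrocyte markers summed to 7587 to 9222 in control, 9651 to 10278 with NP24, 7903 to 11337 with Tβ10 and 9970 to 13021 with Tβ4 (from 12214 without library 2). Of these 8, 5 had a positive difference from control with NP24, 7 with Tβ10 and 7 with Tβ4. Aqp4, the water channel of astrocyte endfeet, was higher with NP24 (1.70 ± 0.25 on the log2 scale, limma adjusted p = 0.000935) and with Tβ10 (1.67 ± 0.30, limma adjusted p = 0.01). Its mean was also higher with Tβ4, at 313 ± 93.3 normalized counts beside 125 ± 49.8 in control, 384 ± 62.4 with NP24 and 391 ± 141 with Tβ10 (SD, n = 4). No astrocyte marker passed the test with Tβ4. The 8 markers of the oligodendrocyte lineage summed to 8959 to 11165 in control, 6772 to 8837 with NP24, 7864 to 9852 with Tβ10 and 8104 to 11016 with Tβ4 (from 9486 without library 2). None of these 8 had a positive difference with NP24, and Mbp (-0.59, limma adjusted p = 0.00184) and Olig2 (-0.67, limma adjusted p = 0.02) were lower. With Tβ10, 1 of the 8 had a positive difference and none passed. The median difference was -0.23 with NP24 and -0.28 with Tβ10. With Tβ4, 3 of the 8 were positive, the median was -0.09 and none passed. The 9 microglial markers summed to 1494 to 1706 in control, 1417 to 1539 with NP24, 1293 to 1746 with Tβ10 and 1556 to 2322 with Tβ4 (from 1899 without library 2). Most of these sums was Cx3cr1, with a control mean of 1304. The median difference of the microglial markers tested was -1.32 with NP24 (5 tested), -0.96 with Tβ10 (7 tested) and 0.89 with Tβ4 (8 tested), and none passed the test. These medians rest on unlike sets of markers. The mitochondrial ribosomal RNAs took 9.32 to 14.2% of reads in control, 5.98 to 8.12% with NP24, 4.76 to 9.53% with Tβ10 and 8.25 to 24.3% with Tβ4 (from 13.2% without library 2). The part of these differences in the levels of the 10 genes was not tested. In bulk RNA, fewer cells of a type and less RNA per cell cannot be told apart.

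Promoter windows of 250 bases before a RefSeq start (build GRCm38.p6) were found for 7 of the 10 genes. Retreg1 had 4 windows, Gpr63 3, Rxrg 2 and Arhgap29 2, and only the one nearest the GENCODE gene start was searched. For Arhgap29 the RefSeq start lay 688 bases from the GENCODE start, so that its window lies within the gene given below. For Retreg1 the distance was 118 bases, and its window runs into the gene. Dclk3, Klhl14 and Necab1 had none in that table. The windows of Ajap1, Tcerg1l and Rxrg are shown because these genes were chosen for a shared pattern while their promoters differ in composition. The coordinates are chr4:153482831-153483080 on the minus strand for Ajap1, chr7:138397731-138397980 on the minus strand for Tcerg1l and chr1:167598112-167598361 on the plus strand for Rxrg. Each is written 5′ to 3′, and capitals mark the matches to the motifs named next.
Ajap1: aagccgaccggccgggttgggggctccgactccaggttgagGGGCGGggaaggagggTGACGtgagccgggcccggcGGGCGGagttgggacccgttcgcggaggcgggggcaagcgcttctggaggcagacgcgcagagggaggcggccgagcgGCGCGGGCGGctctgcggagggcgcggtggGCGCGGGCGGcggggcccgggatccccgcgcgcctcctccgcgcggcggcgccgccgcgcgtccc
Tcerg1l: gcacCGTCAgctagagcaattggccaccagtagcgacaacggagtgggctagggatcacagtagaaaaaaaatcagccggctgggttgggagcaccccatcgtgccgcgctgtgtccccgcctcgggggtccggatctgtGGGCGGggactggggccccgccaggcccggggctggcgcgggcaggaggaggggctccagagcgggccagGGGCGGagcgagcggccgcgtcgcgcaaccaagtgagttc
Rxrg: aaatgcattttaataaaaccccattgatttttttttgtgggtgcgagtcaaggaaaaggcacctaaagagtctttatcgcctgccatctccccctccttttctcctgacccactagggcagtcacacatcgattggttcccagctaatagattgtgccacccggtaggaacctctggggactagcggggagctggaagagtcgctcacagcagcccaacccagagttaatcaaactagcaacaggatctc
The Ajap1 window held 43 CpG dinucleotides and was 81.2% G or C, Tcerg1l held 23 at 69.6%, and Rxrg held 6 at 49.2%. All 32817 windows had a median of 6 CpG and 52.4% G or C.

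Both strands were searched for 9 motifs. The GC box GGGCGG occurred 4 times in the Ajap1 window, at 209, 173, 91 and 61 bases before the start, and 2 times in that of Tcerg1l. It was present in 4 of the 7 windows and in 32.7% of all windows. The EGR motif GCGNGGGCG matched 2 times in the Ajap1 window, overlapping GC boxes, and was in 4.7% of all windows. The CRE half-site TGACG was found in 3 of the 7 windows (17.7% of all), and the full CRE TGACGTCA, which contains it, in that of Retreg1 (1.55% of all). The nuclear receptor half-site AGGTCA was in the windows of Gpr63 and Arhgap29 (14.0% of all). The remaining motifs had no match in the 7 windows. They were the E-box CACGTG (6.02% of all windows), the AP-1 motif TGANTCA (6.75%), the TATA motif, spelled TATAAA (12.4%), and the amino acid response motif TGATGNAA (3.45%). The Rxrg window matched none of the 9 motifs. These matches are descriptions of the sequence only.

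**Figure D1:**
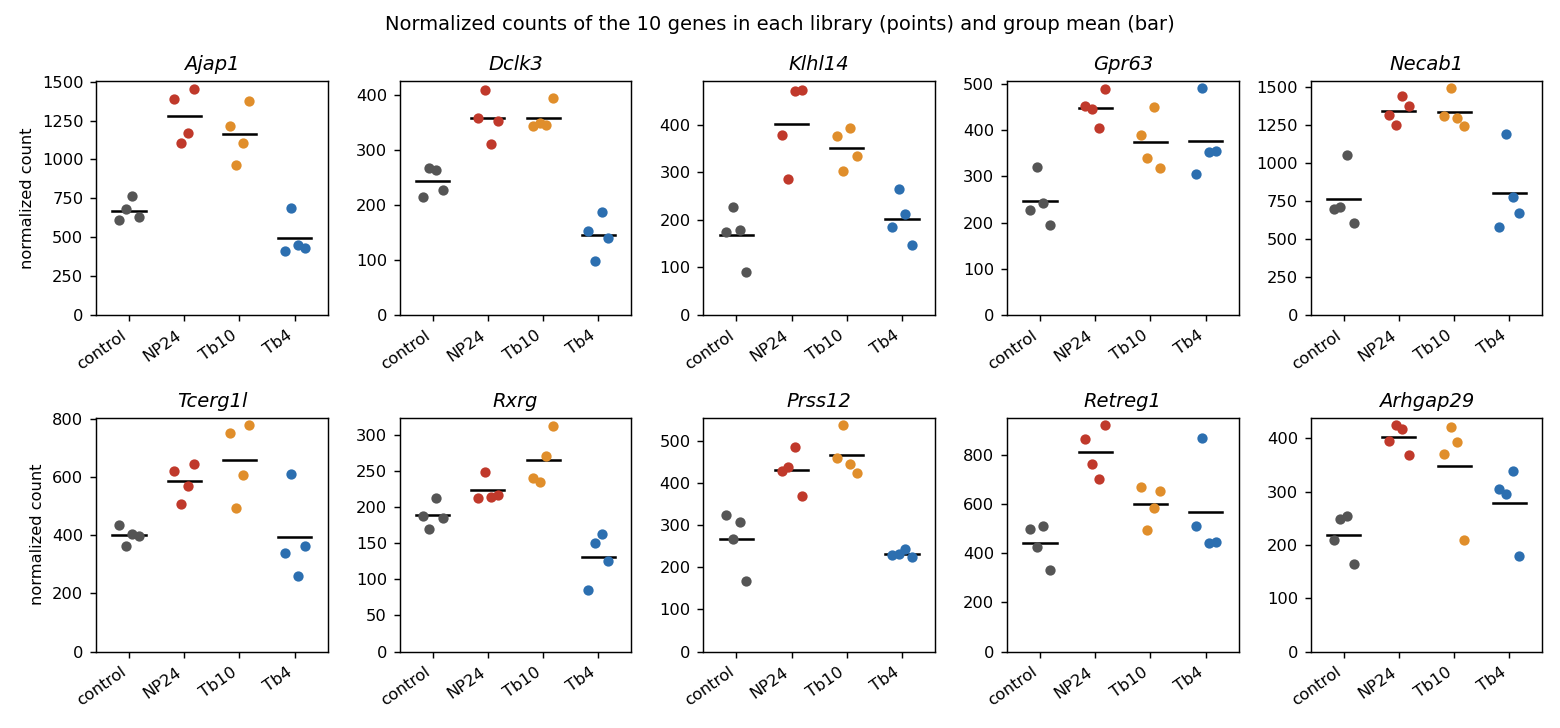
Normalized counts (vertical axis, starting at 0) of the 10 genes in each of the 16 libraries, by group; points are libraries and bars are group means of 4 libraries. Every NP24 library lay above every control library for all 10 genes, and 1 Tβ4 library lay above the rest of its group for Ajap1 (688) and Retreg1 (869).

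Ajap1 (ENSMUSG00000039546.9, GRCm38 chromosome 4, 153373221 to 153482811, minus strand) had normalized counts of 608, 682, 767 and 628 in control libraries 1 to 4. With NP24 the values were 1391, 1103, 1170 and 1452, and with Tβ10 they were 1216, 965, 1108 and 1378. Tβ4 libraries held 408, 688, 449 and 431. Every NP24 and Tβ10 library thus exceeded every control and Tβ4 library, and the Tβ4 libraries other than the second lay below all controls. The means were 671 ± 71.1 in control, 1279 ± 169 with NP24, 1167 ± 174 with Tβ10 and 494 ± 130 with Tβ4 (SD, n = 4). The ratio of means to control was 1.91 for NP24 and 1.74 for Tβ10.

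Gpr63 (ENSMUSG00000040372.2, chromosome 4, 24966407 to 25009233, plus strand), the orphan receptor, had 228, 321, 243 and 194 normalized counts in control and 452, 446, 406 and 490 with NP24. Tβ10 libraries held 391, 341, 451 and 317, and Tβ4 libraries held 305, 492, 353 and 356. The Tβ4 mean of Gpr63 was 376 ± 80.3 and its Tβ10 mean 375 ± 59.4 (SD, n = 4). The Tβ10 libraries overlapped both the control and the Tβ4 libraries. An overlapping transcript of the same strand, Gm11906, shares 108 exonic bases with Gpr63 and had a mean of 956 normalized counts, so reads of the 2 genes may not be fully separated.

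Necab1 (ENSMUSG00000040536.15, chromosome 4, 14952245 to 15149794, minus strand), the calcium binder, had 697, 709, 1048 and 603 normalized counts in control. With NP24 its mean was 1343 ± 81.2, with Tβ10 1332 ± 110 and with Tβ4 803 ± 270 (SD, n = 4). The Tβ4 libraries held 577, 1189, 775 and 670, so that the second lay above all controls and just below the lowest NP24 library at 1248. Antisense Gm11837 overlaps 410 exonic bases of Necab1 and had a mean of 103.

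Dclk3 (ENSMUSG00000032500.10, chromosome 9, 111439081 to 111489118, plus strand), the doublecortin-like kinase, had 215, 267, 264 and 228 normalized counts in control. With NP24 the values were 359, 410, 312 and 354, and with Tβ10 344, 349, 347 and 396. Tβ4 libraries held 154, 98.8, 187 and 140, all below the controls. Here the second Tβ4 library was the lowest of its group, whereas it was the highest for 6 of the 10 genes. The Dclk3 means were 243 ± 26.1, 359 ± 40.3, 359 ± 24.5 and 145 ± 36.5 in control, NP24, Tβ10 and Tβ4 (SD, n = 4).

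Arhgap29 (ENSMUSG00000039831.16, chromosome 3, 121952541 to 122016753, plus strand), the GTPase-activating protein, had 209, 248, 255 and 164 normalized counts in control and 396, 425, 417 and 368 with NP24. Tβ10 libraries held 371, 422, 393 and 210, and Tβ4 libraries held 305, 295, 338 and 180. The fourth Tβ10 library, the one with the fewest reads, fell within the control range, while the other Tβ10 libraries did not.

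Rxrg (ENSMUSG00000015843.10, chromosome 1, 167598384 to 167639623, plus strand), the retinoid X receptor, differed least between NP24 and control. Its normalized counts were 188, 169, 213 and 184 in control and 213, 248, 213 and 217 with NP24, where the lowest NP24 library (213.1) barely exceeded the highest control (212.8). Tβ10 libraries held 241, 234, 271 and 312, and Tβ4 libraries held 85.4, 150, 163 and 125. All Tβ4 libraries lay below all controls. The means were 189 ± 18, 223 ± 17, 264 ± 35.6 and 131 ± 34.1 in control, NP24, Tβ10 and Tβ4 (SD, n = 4).

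Klhl14 (ENSMUSG00000042514.11, chromosome 18, 21550377 to 21654718, minus strand), the Kelch-like protein, had the largest ratio of NP24 to control means among the 10 genes, 2.4. Its normalized counts were 175, 228, 179 and 89.5 in control, 378, 286, 471 and 472 with NP24, and 376, 302, 393 and 334 with Tβ10. Tβ4 libraries held 185, 265, 212 and 148 and overlapped the controls. An antisense transcript, 4930426D05Rik, overlaps 610 exonic bases of Klhl14 and had a mean of 38.4.

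Tcerg1l (ENSMUSG00000091002.2, chromosome 7, 138208974 to 138397730, minus strand) had 436, 362, 404 and 398 normalized counts in control. With NP24 the values were 620, 508, 570 and 645, and with Tβ10 750, 495, 607 and 778. The Tβ4 libraries held 339, 610, 260 and 363, and the second of them lay among the NP24 and Tβ10 libraries. The Tβ4 mean was 393 ± 151 against 400 ± 30.1 in control (SD, n = 4).

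Prss12 (ENSMUSG00000027978.9, chromosome 3, 123446913 to 123506597, plus strand), the agrin-cleaving protease, had 324, 267, 308 and 168 normalized counts in control. With NP24 the mean was 430 ± 48.3, with Tβ10 465 ± 49.2 and with Tβ4 232 ± 8.68 (SD, n = 4). The Tβ4 libraries, at 229, 232, 244 and 224, were the most alike of any Prss12 group. Antisense Gm35065 overlaps 157 exonic bases of Prss12 and had a mean of 23.1.

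Retreg1 (ENSMUSG00000022270.16, chromosome 15, 25843180 to 25973687, plus strand), the autophagy receptor, had 496, 426, 512 and 330 normalized counts in control and 863, 762, 700 and 921 with NP24. Tβ10 libraries held 667, 493, 584 and 653, and Tβ4 libraries held 510, 869, 440 and 446. Retreg1 was the only 1 of the 10 genes whose NP24 libraries all lay above all Tβ10 libraries. Between NP24 and Tβ10, 0.783% of the 21852 genes tested showed that pattern.

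The contrasts of NP24 and Tβ10 with control and with Tβ4 chose the genes, so their differences are a description and carry no test. On the log2(value + 1) scale, the NP24 difference from control ranged from 0.24 ± 0.18 for Rxrg to 1.30 ± 0.23 for Klhl14 (± SE), with 0.93 ± 0.12 for Ajap1. The Tβ10 difference from control ranged from 0.45 ± 0.16 for Retreg1 to 1.13 ± 0.23 for Klhl14, with 0.79 ± 0.13 for Ajap1. The medians over the 10 genes were 0.86 and 0.67, beside -0.0038 and -0.0049 over all genes tested.

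Against Tβ4, the NP24 difference was 1.39 for Ajap1 and 1.33 for Dclk3 but 0.27 for Gpr63. The Tβ10 difference from Tβ4 was 1.26 for Ajap1 and 1.34 for Dclk3 but 0.0038 for Gpr63 and 0.13 for Retreg1. Without Tβ4 library 2 the NP24 difference was 1.56 for Ajap1, 1.16 for Dclk3 and 0.41 for Gpr63. The Tβ10 difference was then 1.43 for Ajap1, 1.17 for Dclk3, 0.14 for Gpr63 and 0.36 for Retreg1. The Retreg1 difference also depended on other libraries, at 0.22 without Tβ10 library 2, 0.08 without Tβ10 library 1, 0.09 without Tβ10 library 4, and 0.03 and 0.04 without Tβ4 libraries 3 and 4. The medians over the 10 genes were 0.80 and 0.80 with library 2, and 0.88 and 0.99 without it. NP24 libraries lay above all controls for 10 of 10 genes (5.07% of all genes tested), and Tβ10 libraries for 7 of 10 (2.96%). NP24 libraries lay above all Tβ4 libraries for 7 of 10 genes (3.11%), and Tβ10 libraries for 6 of 10 (2.71%). Without Tβ4 library 2 these counts were 10 of 10 (8.73%) and 7 of 10 (7.21%). In all 4 contrasts the libraries did not overlap for 6 genes, namely Ajap1, Dclk3, Klhl14, Necab1, Rxrg and Prss12 (0.362% of the 20971 genes tested in all 4). Without Tβ4 library 2 Tcerg1l joined them, for 7 genes (0.673%). The genes were chosen for these contrasts, so nothing is read from the shares. The comparisons share control or Tβ4 libraries.

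**Figure D2:**
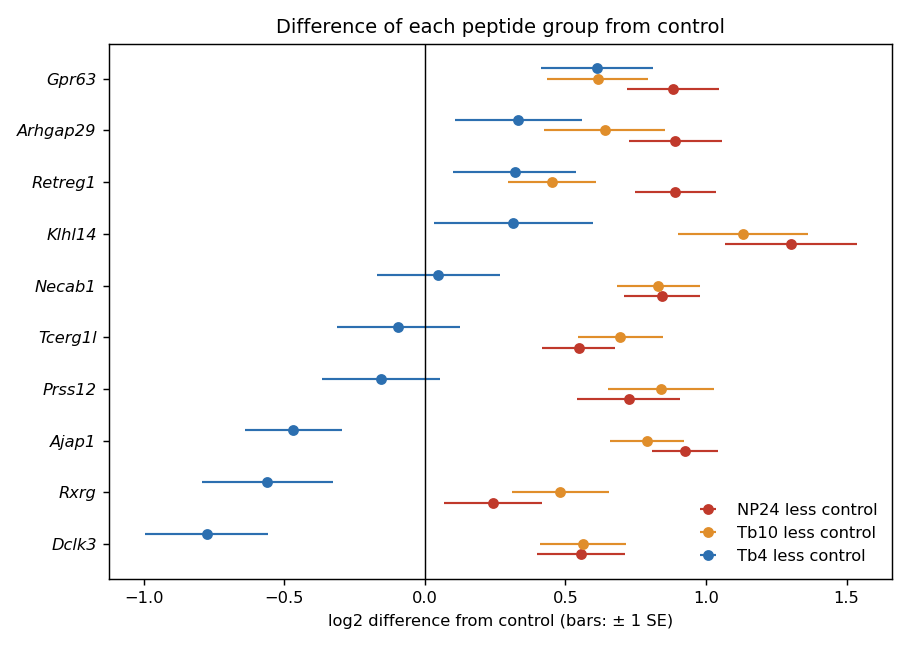
Difference of each peptide group from control on the log2(value + 1) scale (horizontal axis) for the 10 genes; points are estimates from 4 libraries a group and bars are ± 1 SE. NP24 and Tβ10 points lie to the right of 0 for all 10 genes, while Tβ4 points run from -0.78 for Dclk3 to 0.61 for Gpr63.

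The difference between Tβ4 and control was not itself used to choose the genes. The values of both groups entered the choice, however, so the tests below are not independent of it. None of the 10 genes passed the test in limma (adjusted p under 0.05), and 0% of the 22205 genes tested did, while 1568 genes had an unadjusted p under 0.05. edgeR on the recovered reads called 0 genes and DESeq2 called 82, none of them among the 10. The 10 differences had a median of -0.02 and 5 were positive, beside a median of -0.0033 over all genes tested. Dclk3 gave -0.78 ± 0.22 (95% interval -1.25 to -0.30, adjusted p = 0.458). Rxrg gave -0.56 ± 0.23 (-1.06 to -0.06, adjusted p = 0.666), and Ajap1 gave -0.47 ± 0.17 (-0.84 to -0.10, adjusted p = 0.597). Gpr63 lay on the other side of 0, at 0.61 ± 0.20 (0.18 to 1.04, adjusted p = 0.509). For Dclk3 and Rxrg all Tβ4 libraries were below all controls, as were those of 2.17% of all genes tested.

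The result for Tβ4 rested on its second library. Without it, limma called 354 genes, 135 higher (0.623%) and 219 lower (1.01%) of 21665 tested, and Ajap1 was lower with Tβ4 by -0.64 ± 0.13 (95% interval -0.91 to -0.36, adjusted p = 0.0226), with a mean of 429 ± 20.3 (SD, n = 3). It was the only 1 of the 10 genes that passed. Low Tβ4 values also favored the choice of Ajap1, and the library left out held its highest value among the Tβ4 libraries. The p-value is therefore a description and not independent of the choice. Dclk3 gave -0.61 (adjusted p = 0.143), Rxrg -0.64 (adjusted p = 0.223) and Gpr63 0.48 (adjusted p = 0.241) by limma. Over all alternatives the adjusted p of Ajap1 ran from 0.0226 to 0.995. That of Dclk3 ran from 0.018 to 0.994. In the authors' deposited table, Dclk3 had a log2 fold change of -0.74 ± 0.18 (SE) for Tβ4 with an adjusted p of 0.025.

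**Figure D3:**
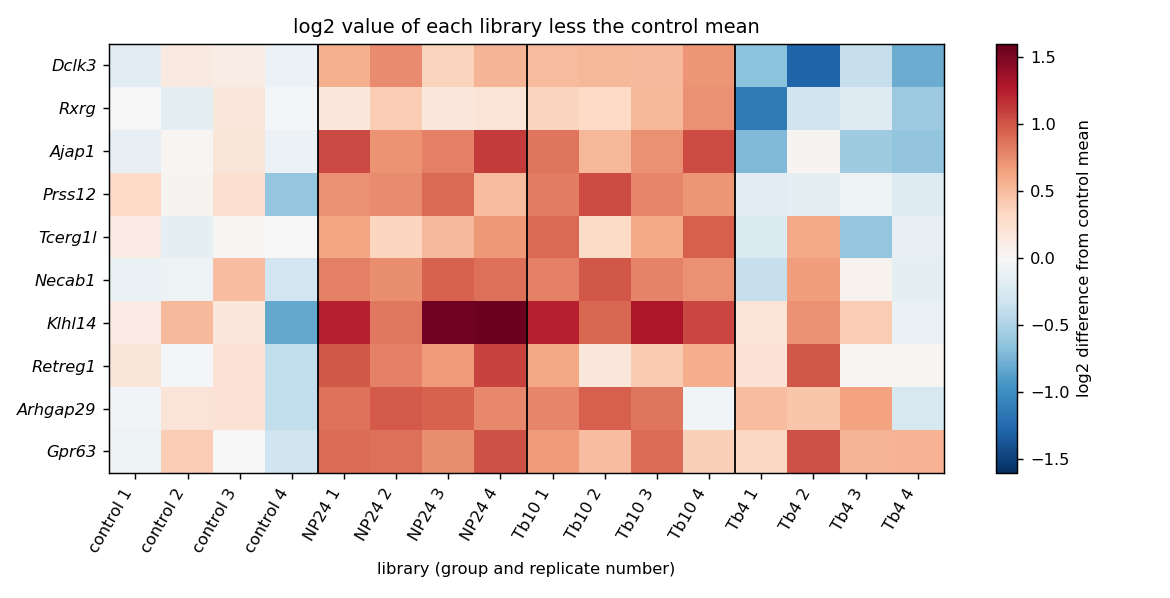
log2 value of each library less the control mean (color) for the 10 genes (rows) in the 16 libraries (columns). NP24 libraries are positive throughout, and the second Tβ4 library is positive for 7 of the 10 genes.

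Averaged over the 10 genes, the log2 difference from the control mean was 0.72 to 0.84 in NP24 libraries and 0.63 to 0.76 in Tβ10 libraries. Control libraries ran from -0.31 to 0.19. Tβ4 libraries 1 to 4 gave -0.20, 0.27, -0.02 and -0.23, so the second lay above the control libraries. The fourth control library had the lowest value of the controls, with all 10 genes below the control mean.

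NP24 and Tβ10 stood on the same side of the choice, so it did not rest on their difference. The values of both groups entered it, however, so this test is not independent of the choice. None of the 10 genes passed in limma, and 0% of the 21852 genes tested did, with 464 at an unadjusted p under 0.05. The outcome therefore does not set the 10 genes apart. edgeR and DESeq2 on the recovered reads also called 0 genes. Retreg1 had the largest difference, 0.44 ± 0.19 (95% interval 0.04 to 0.84, adjusted p = 1.00). Ajap1 gave 0.14 (-0.19 to 0.46), Gpr63 0.27 (-0.10 to 0.63) and Rxrg -0.24 (-0.64 to 0.16). These intervals do not show that the peptides act alike.

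Compared per kilobase of exon and over all 16 libraries, Ajap1 had the highest level of the 10 genes at 296 normalized counts per kilobase, followed by Necab1 at 203, and Arhgap29 the lowest at 35.4. In control the level was 220 for Ajap1 and 146 for Necab1. All 10 genes span more of the genome than the median coding gene: their median span was 84277.5 bp, beside 28341 bp over 12789 coding genes with a mean of at least 50 normalized counts. Their median exon length, 3452 bp, was shorter than the 4740 bp of those genes.

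Within groups the genes did not move as one. After subtraction of group means, 34 of the 45 pairs correlated positively over the 16 libraries, with a median r of 0.29 and a range from -0.73 (Dclk3 and Tcerg1l) to 0.82 (Ajap1 and Retreg1). These correlations are descriptions, and their points share library, depth and normalization. Both extremes involve genes at an end of their group in Tβ4 library 2, highest for Ajap1, Retreg1 and Tcerg1l and lowest for Dclk3. The correlations were not computed without that library, so its part in them was not tested.

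Over the 16 libraries, the genes of most similar pattern to Ajap1 among 12567 candidates were Pgbd5 (Pearson r 0.95), Nwd2 (0.94), Mpped1 (0.94), Mkx (0.94) and Jakmip1 (0.93). Pgbd5 had 636 ± 54.3 normalized counts in control, 943 ± 99.7 with NP24, 833 ± 51.4 with Tβ10 and 548 ± 74.4 with Tβ4 (SD, n = 4). The most similar gene was Map6 for Dclk3 (0.92), Zfp780b for Klhl14 (0.93), Ldah for Gpr63 (0.89), Sphkap for Necab1 (0.95) and Fbn1 for Tcerg1l (0.93). It was Camkk2 for Rxrg (0.95), Gmpr for Prss12 (0.91), Tmcc1 for Retreg1 (0.92) and Hdgfl3 for Arhgap29 (0.89). These values describe group differences and within-group spread together.

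The pathways of the 10 genes were followed in 11 lists of 182 genes that hold none of the 10. With NP24, 8 of the 170 genes tested were higher than in control and 2 were lower (limma, adjusted p under 0.05), or 4.71% and 1.18%, beside 1.16% and 1.47% of all genes tested. With Tβ10, 0 of 169 were higher and 1 was lower, beside 0.1% and 0.533% of all genes. The lists were chosen with earlier results of these data known, so nothing is read from these shares. With Tβ4, 0 of 171 passed; without its second library Kcnip4 (-1.02), Kctd16 (-1.05) and Radil (-0.56) were lower (limma, adjusted p under 0.05). The median difference over the lists was 0.03 with NP24, -0.0039 with Tβ10 and -0.02 with Tβ4.

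In the Kelch-like and torsin list, Klhl29 rose with NP24 from 4814 ± 478 to 8176 ± 1146 normalized counts (SD, n = 4), a log2 difference of 0.76 ± 0.10 (limma adjusted p = 0.000503). It was the only 1 of the 25 genes tested in that list that was called. The Tβ10 mean of Klhl29 was 7237 ± 1340 (SD, n = 4). Tβ4 library 2 held 8550, beside 3895 to 4596 in the other Tβ4 libraries. In the GABA-B receptor list, 2 of 7 genes rose: Kctd12, an auxiliary subunit (0.52 ± 0.11, limma adjusted p = 0.0133), and Gabbr2, a receptor subunit (0.41 ± 0.11, limma adjusted p = 0.0384).

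Among orphan and lysophospholipid receptors, 2 of 18 rose with NP24. Gpr85, an orphan receptor, gave 0.39 ± 0.10 (limma adjusted p = 0.0331). In the remaining lists 1 gene rose each in calcium binding (Vsnl1, 0.49, limma adjusted p = 0.0401), autophagy of the endoplasmic reticulum (Rtn3, 0.33, limma adjusted p = 0.0493) and Rap1 signalling (Rap1a, 0.50, limma adjusted p = 0.0323).

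In the list of agrin and extracellular serine proteases, 2 of 9 genes fell with NP24. Plat, a secreted serine protease, fell by 0.62 on the log2 scale with NP24 (SE 0.16, limma adjusted p = 0.0422). Agrn itself, the substrate of Prss12, gave -0.24 and did not pass.

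No gene passed with NP24 in the lists of adherens junctions (0 of 17), doublecortin-like and calmodulin-dependent kinases (0 of 12), retinoid receptors and metabolism (0 of 19) or transcription elongation (0 of 10). Among close relatives of the 10 genes, Klhl29 passed, and those named next did not. With NP24, Dclk1 gave 0.16 and Dclk2 -0.11 on the log2 scale, Necab2 0.02 and Necab3 0.13, and Rxra -0.19 and Rxrb -0.06. Retreg2 gave -0.04 and Retreg3 0.16. Pianp, a relative of Ajap1, gave -0.40 (limma adjusted p = 0.124), and Gpr45, a relative of Gpr63, gave 0.46 (limma adjusted p = 0.0952).

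**Figure D4:**
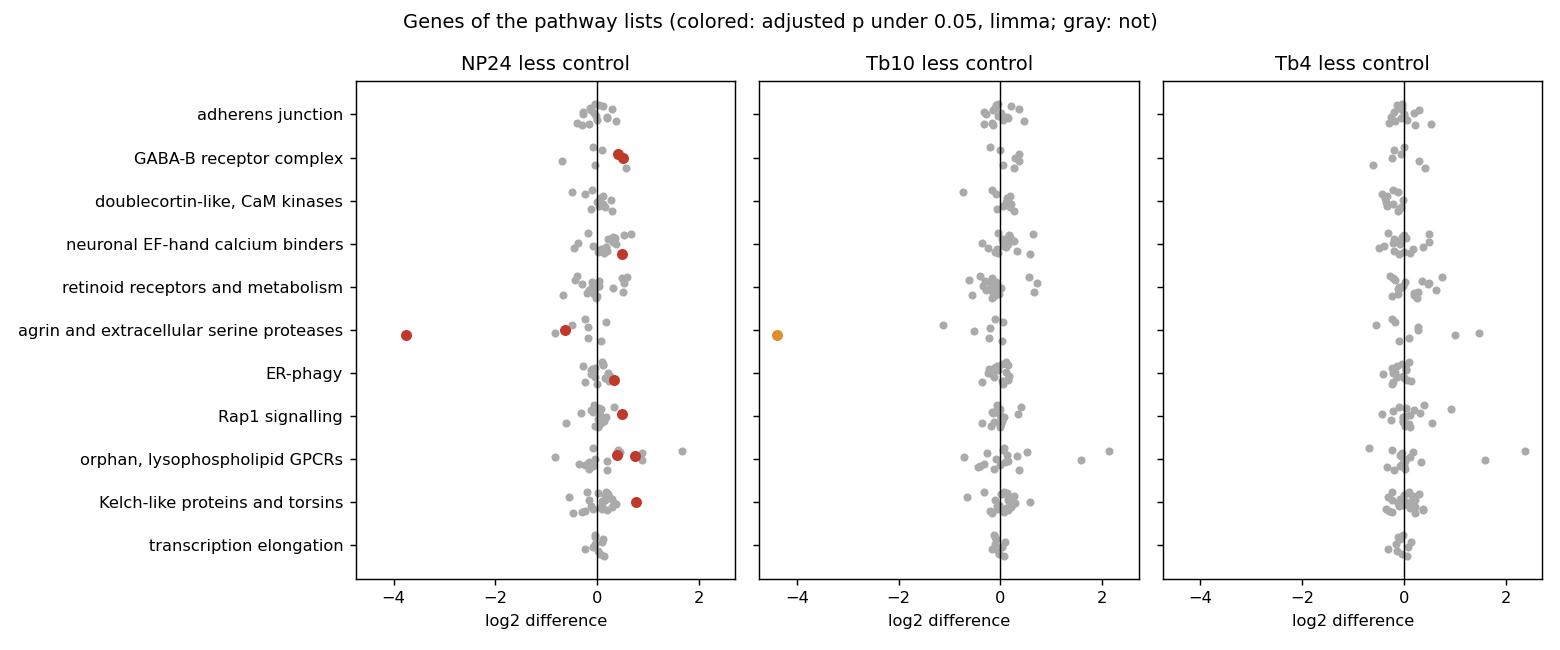
log2 difference from control (horizontal axis) of genes in the 11 pathway lists (rows) for NP24, Tβ10 and Tβ4; each point is 1 gene, colored where the limma adjusted p was under 0.05 and gray otherwise. Colored points number 10 with NP24, 1 with Tβ10 and 0 with Tβ4.

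The count of called pathway genes with NP24, 10 in all, depended on the libraries. It was 2, 4, 5 and 5 without control libraries 1 to 4, and 4, 14, 3 and 15 without NP24 libraries 1 to 4. With Tβ10 it was 0 without any 1 of the control libraries, and 2, 5, 1 and 1 without Tβ10 libraries 1 to 4. With the spread of all 16 libraries the NP24 count was 1, and Klhl29 then had a limma adjusted p of 0.0917. Scaled to library totals, 12 rose and 1 fell, while all genes tested gave 508 higher and 256 lower in place of 253 and 319.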

How the data were processed

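Total RNA of 16 libraries (RNeasy Micro, SMARTer Stranded Total RNA-Seq kit, per the labels' protocols) was processed by the authors with FastQC, HISAT or HISAT2, featureCounts and DESeq2 on GRCm38, per the submitters' processing notes; versions and strand setting are not given in the sources used here. The deposited library values are signal: gene counts scaled by the authors with a size factor for each library, the same in 3 tables to a relative 4.9e-07. All nonzero values (100%) were whole multiples of a read at a tolerance of 0.01, so reads were recovered. On these reads edgeR called 518, 129 and 0 genes and DESeq2 1178, 432 and 82 for NP24, Tβ10 and Tβ4 against control. The deposited tables also hold the authors' log2 fold changes, a test statistic as a score, and p-values, used only where named.

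Because the values are normalized, limma-trend (limma 3.58.1, R 4.3.3) was fitted to log2(value + 1) of genes that reached 10 normalized counts in 4 or more libraries of the comparison, with Benjamini-Hochberg adjustment over all genes and a threshold of 0.05. Comparisons with control used 8 libraries, and other pairs all 16. Alternatives were edgeR 4.0.16, DESeq2 1.42.0, other scalings, pseudocounts 0.1 and 10, no filter, a replicate block and leaving out each library. Scripts were tested on simulated data. Positions came from GENCODE, with 45596 of 45724 identifiers found.

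The 10 genes and the lists were chosen with earlier results of these data known. Named were the 10 genes, list genes called in a comparison with control (up to 3 a list) and up to 2 relatives, the genes most similar in pattern (5 for Ajap1, 1 for each other; mean of at least 50), overlapping genes and up to 3 markers a list. Some named genes of the lists are not reported here, though the counts include them.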

Additional observations from a re-analysis of the deposited data

Results flagged for a closer look

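Within groups of 4 libraries, 4 of 40 combinations of gene and group held a value far from the rest by Dixon's test, which by chance marks about 1 in 20 groups. Ajap1 had 688 normalized counts in Tβ4 library 2, where the next value was 449 and the lowest 408. Retreg1 had 869 in the same library, where the next value was 510 and the lowest 440. Dclk3 had 396 in Tβ10 library 4, where the other values were 344 to 349. Rxrg had 248 in NP24 library 2, where the other values were 213 to 217.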

How the results depend on the processing

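The NP24 and Tβ10 differences from control and from Tβ4 were positive for all 10 genes under the deposited scaling, TMM, scaling to totals and both other pseudocounts. Leaving out 1 library reversed only the Tβ10 difference of Gpr63 from Tβ4 (0.0038), which then ran from -0.0897 (without Tβ4 library 1) to 0.1395 and was below 0 also without Tβ10 library 1 or 3 or Tβ4 library 3 or 4. Scaling to totals moved the median of all genes by 0.15 (NP24 less Tβ4) and 0.19 (Tβ10 less Tβ4), and that of the 10 genes to 0.94 and 0.99.

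For Tβ4 against control, 0 of the 10 genes were called, 0 to 1 on leaving out a library, and 1 (Dclk3) by DESeq2 with the spread of 16 libraries, an alternative chosen after the data were seen. For NP24 against Tβ10 the count was 0 throughout. Pathway genes called with NP24 numbered 10, with 5 under no filter, 1 with the spread of 16 libraries, 3 by DESeq2 and 1 by edgeR with that spread (both chosen after the data were seen), and 2 to 15 on leaving out a library. With Tβ10 the count was 1, with 5 by DESeq2, 4 by DESeq2 with the spread of 16 libraries, 3 under scaling to totals, 3 with a pseudocount of 10, and 0 to 5 on leaving out a library. With Tβ4 it was 0, and 0 to 3 on leaving out a library. The cause was not tested.

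Replicate numbers did not pair the libraries: 16 same-numbered pairs correlated from -0.27 to 0.23, with 4 over 0.1, and 6 libraries correlated best with their own number. With the replicate number as a block, the pathway counts were 8 (NP24), 1 (Tβ10) and 0 (Tβ4), and 0 of the 10 genes were called in either comparison. The lowest count behind any value of the 10 genes was 70 reads, and how much of the spread is counting error was not tested.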
